A study of Mus musculus with 12 samples.

Results

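The genes described here are 45 complement and coagulation factors, plasma proteins of innate defence and of clotting, for most of which the liver is the main source. They were taken as a list of gene symbols, and every probe whose RefSeq accession maps to one of these symbols was read on the array. This gave 58 probes for the 45 genes, out of 20886 genes that could be named in all. For the 12 genes with several probes, the brightest probe was used.

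Complement is a chain of proteases that starts at antibody through C1 (the classical pathway), at sugars through the mannose-binding lectins (the lectin pathway) or by itself (the alternative pathway), meets at C3 and ends in a pore in the target membrane. Coagulation is a similar chain, in which factors that need vitamin K and their cofactors lead to thrombin, thrombin cuts fibrinogen to fibrin, and plasmin later dissolves the clot. Hepatocytes secrete most of these proteins, and fibrinogen, C3 and C4 belong to those that inflammation induces in the liver. C1q comes mainly from macrophages, which in liver are the Kupffer cells, properdin (Cfp) from leukocytes, factor VIII (F8) from sinusoidal endothelial cells and factor D (Cfd, also called adipsin) from adipocytes.

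Liver RNA came from 12 female C57BL/6N mice, 3 in each of 4 diet groups, after 6 months on the diets. The Ctrl diet was a normal formula diet with corn starch and sucrose as its carbohydrate, and the RS diet was the same with resveratrol, a plant stilbene, added. In the DJ diet Dongjin rice took the place of the starch and sucrose, and in the DJ526 diet this was rice of the line DJ526, made from Dongjin with a stilbene synthase gene of peanut so that the grain holds resveratrol. DJ526 therefore differs from DJ in a transgene of the rice as well as in resveratrol. The mice were bought at 6 weeks of age, cages were assigned to a diet, and the cage of a mouse is not given. A sample table published with the study pairs RS and DJ with each other's arrays. The labels in GEO were followed here, and if that table were right, RS and DJ would trade places in every value below.

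The RNA of a mouse was read on its own one-colour array. A level below is log2 of the signal that the scanner software reports after background subtraction, minus log2 of the 75th percentile of that array, so that a difference of 1 is a 2-fold difference in signal. Probes differ in brightness, and levels are compared between mice only, never between genes. On an array, 73.0% to 80.8% of the 43020 non-control spots were well above background and none was saturated. Slide 1 carried all Ctrl arrays and DJ replicate 1, slide 2 carried replicates 1 and 2 of RS and replicates 2 and 3 of DJ, and slide 3 carried RS replicate 3 and all DJ526 arrays. Diet and slide thus go together in large part, and RS and Ctrl, DJ526 and Ctrl, and DJ526 and DJ share no slide at all. All 6 hepatocyte markers (Alb, Apoa1, Ttr, Serpina1a, Cyp2e1 and Tat) were well above background on all 12 arrays.

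Of the 45 genes, 44 were well above background on every array, and Cfd was so on 9. Most of them varied little between mice of one diet. The SD within groups had a median of 0.131 over the 45 genes and was under 0.2 for 33 of them, against a median of 0.190 over the 27285 probes well above background on every array and of 0.103 over the 2438 probes with a mean level above 4. The factor V gene F5, a cofactor in the step that makes thrombin, varied least (SD within groups 0.0453). The genes that varied most were Cfd (2.71), C8a (0.549), C1qb (0.413), C1qa (0.38), C8b (0.347), F11 (0.331), Mbl1 (0.289) and Cfp (0.279). In several of these genes single mice stood out within a diet, as the values below show. The group mean was highest in DJ for 19 genes, in Ctrl for 14, in DJ526 for 7 and in RS for 5, and it was lowest in DJ526 for 19, in RS for 14, in DJ for 7 and in Ctrl for 5.

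**Figure D1:**
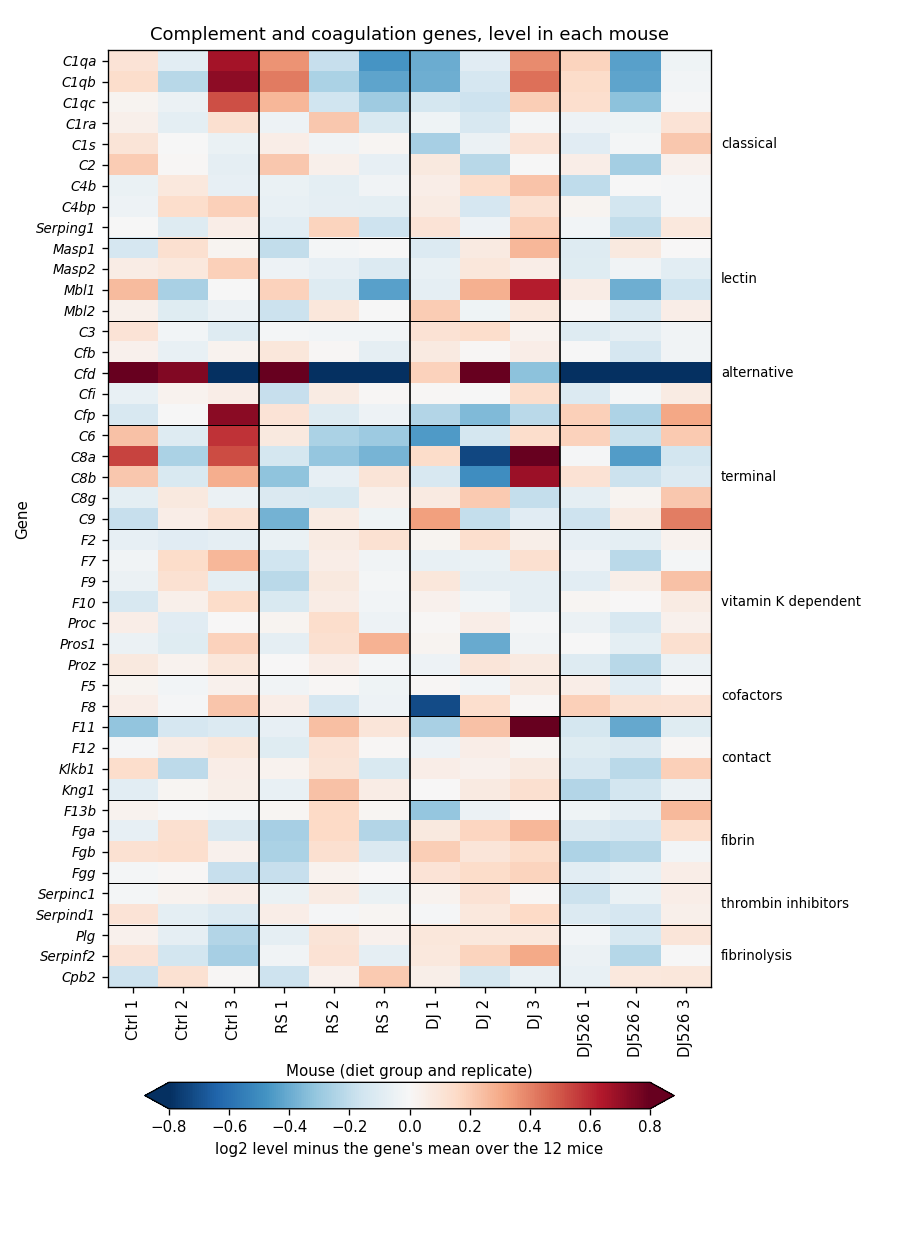
Level of each of the 45 genes (rows, ordered by role) in each of the 12 mice (columns, ordered by diet), as the log2 level minus the mean of that gene over the 12 mice. Colours end at 0.8 in either direction. Cfd passes the end of the scale in most mice. C8a, C8b, F8, F11, Cfp, Mbl1 and the C1q genes show single dark cells, and most other rows are paler.

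No gene of the 45 passed the test in any comparison. The test was limma with Benjamini-Hochberg adjustment over all 39429 probes and a threshold of 0.05, which called 0% of the probes between RS and Ctrl, 0% between DJ and Ctrl, 0.00507% between DJ526 and Ctrl, 0.0101% between DJ526 and DJ, 0.00761% between DJ526 and RS, and 0% for the contrast of both resveratrol differences, with rice and with starch (DJ526 minus DJ against RS minus Ctrl). At an unadjusted p under 0.05, limma had 1, 3, 4, 7 and 1 of the 45 genes in the 5 comparisons of 2 groups, in the order just given, and 4 in the sixth, where 6%, 5.25%, 10.8%, 9.84%, 5.51% and 6.14% of all probes had one. The count stood above that share in DJ526 against DJ (7 of 45) and was near it or below it in most of the others. The methods' t-test had 1, 2, 3, 5 and 1 in the 5 comparisons of 2 groups. Once slides were blocked no gene of the list passed either (smallest adjusted p 0.127 from limma), and 64 of the 225 differences of the 45 genes in the 5 comparisons turned their direction. With this block every comparison with Ctrl rests on DJ replicate 1, the only other array on slide 1. Without the block, the smallest adjusted p of a gene of the list was 0.683 (Masp2, RS against Ctrl), 0.895 (Serpinf2, DJ against Ctrl), 0.336 (Masp2, DJ526 against Ctrl), 0.378 (Fgb, DJ526 against DJ) and 0.814 (Kng1, DJ526 against RS), all from limma. With 3 mice against 3, the groups can be described further by whether they overlap, and an exact two-sided permutation test cannot go below p = 0.1. All differences below are therefore values that did not pass the adjusted test, given with their standard error (SE) from the limma fit, and in bulk RNA a smaller share of a cell type and less RNA per cell cannot be told apart.

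Between RS and Ctrl, 2 genes lay higher without overlap (F2 and F11) and 2 lower (C4bp and Masp2), where 5.84% of all probes lay higher and 4.33% lower without overlap. Between DJ and Ctrl, 3 lay higher (F2, Fgg and Plg) and 1 lower (Cfp), where all probes gave 4.4% and 4.99%. Against Ctrl, DJ526 had no gene higher and 4 lower (Fgb, Masp2, Proz and Cfd), with 12.4% and 8.35% of all probes. Of the 2438 probes with a mean level above 4, 3.45% lay higher and 17.6% lower without overlap in that comparison. Of the 27 genes of the list above that level, 0 lay higher and 2 lower. Against DJ, DJ526 had no gene higher and 9 lower (Fgb, Fgg, Serpinf2, C3, C4b, Cfb, Cfd, Kng1 and Proz), with 12.2% of all probes higher and 6.28% lower. Against RS, DJ526 had 1 gene higher (F8) and 3 lower (C3, F11 and Proz), with 5.15% and 5.93% of all probes. DJ526 against DJ thus held the most genes of the list in 1 direction. This comparison and that of DJ with Ctrl share the DJ mice, so that a high DJ mean enters both.

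The lean of the list between DJ526 and DJ was also seen among other bright probes. Of the 45 genes 33 had a lower mean in DJ526 than in DJ (median log2 difference -0.08), whereas 43.8% of all 39429 probes did (median 0.04). Of the 2438 probes with a mean level above 4, 68.4% had a lower mean in DJ526 (median -0.05), and 2.26% lay higher and 16.7% lower without overlap. Of the 27 genes of the list above that level, 22 had a lower mean (median -0.10), and 7 lay lower without overlap. Of the hepatocyte markers 5 had a lower mean, and 3 lay lower without overlap. Albumin (Alb), the most abundant protein that hepatocytes secrete, was 9.10, 9.13 and 9.11 in DJ526 and 9.38, 9.49 and 9.33 in DJ. The part of these shared shifts in the values of the single genes was not tested.

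**Figure D2:**
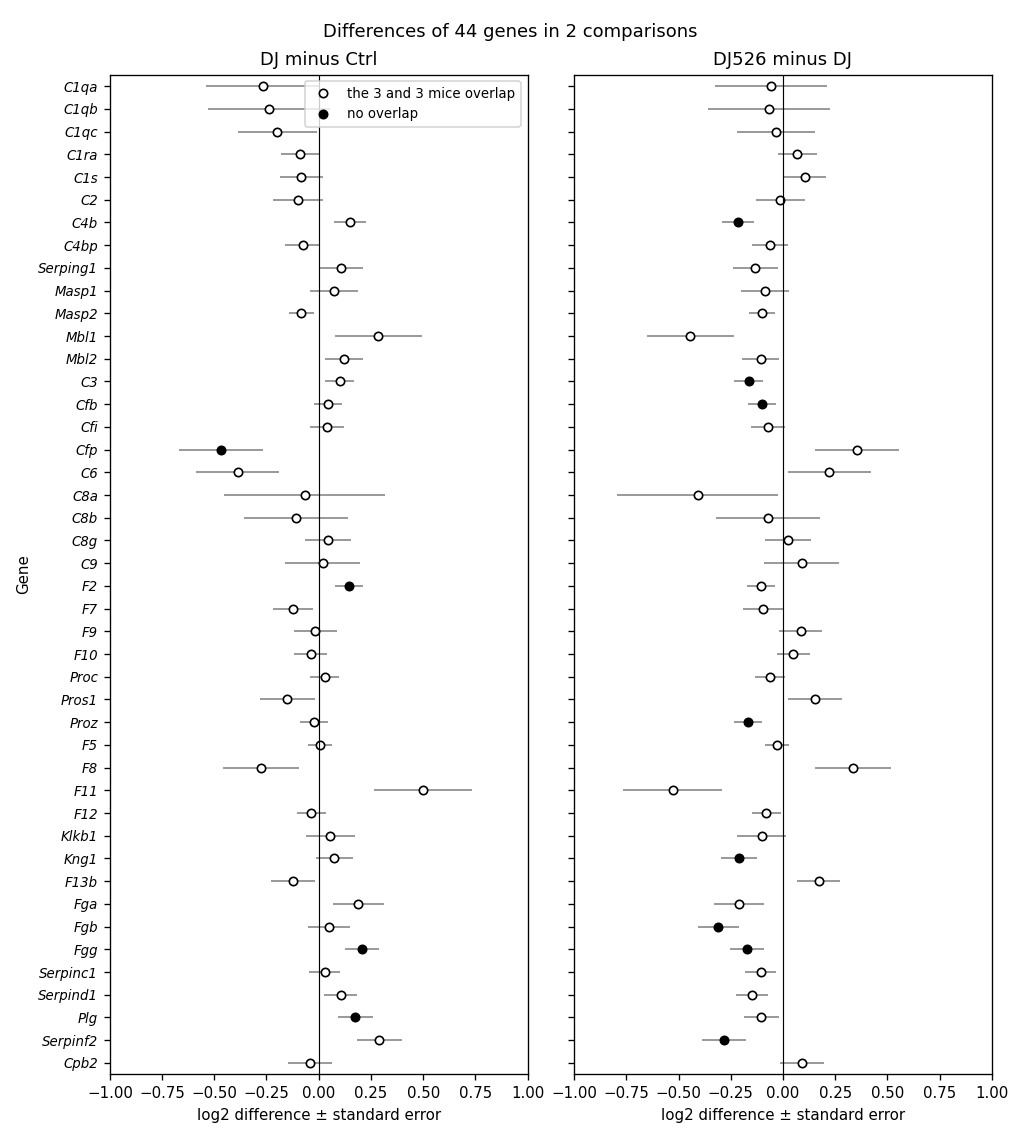
Log2 difference of 44 genes (Cfd is left out because its SE is 1.89) between DJ and Ctrl (left) and between DJ526 and DJ (right), with 1 SE of the limma fit on either side. Filled points are genes for which the 3 mice of one diet do not overlap the 3 of the other, 4 on the left and 8 on the right, and the 8 on the right all lie below 0.

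In the genes of the fibrin clot, Fgb and Fgg differed between diets without overlap. Fibrinogen has a pair each of 3 chains, encoded by Fga, Fgb and Fgg, which lie side by side in the mouse genome, and the promoters of the 3 genes are shown here because the chains are made in step in hepatocytes. The sequences are the 250 bases before the RefSeq start of each gene in build GRCm38.p6, 5′ to 3′ on the strand of the gene, with capitals for matches to 1 of 3 motifs: TATAAA (the core promoter box), TTNNGCAA (the liver factor C/EBP) and CTGGGAA (the element through which interleukin-6 acts on fibrinogen genes). Both strands were searched, and no matches overlapped in the sequences printed. Fgg is at chr3:83007474-83007723 on the plus strand, Fga at chr3:83025903-83026152 on the plus strand and Fgb at chr3:83049864-83050113 on the minus strand.
Fgg: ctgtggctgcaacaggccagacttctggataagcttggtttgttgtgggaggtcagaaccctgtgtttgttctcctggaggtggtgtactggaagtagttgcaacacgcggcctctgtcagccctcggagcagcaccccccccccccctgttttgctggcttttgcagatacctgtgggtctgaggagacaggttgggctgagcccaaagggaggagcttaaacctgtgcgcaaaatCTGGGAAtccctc
Fga: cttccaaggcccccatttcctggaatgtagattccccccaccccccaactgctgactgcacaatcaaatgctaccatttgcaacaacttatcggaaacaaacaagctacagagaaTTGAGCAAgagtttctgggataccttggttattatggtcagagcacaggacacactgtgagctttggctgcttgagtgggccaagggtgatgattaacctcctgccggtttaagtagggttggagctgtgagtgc
Fgb: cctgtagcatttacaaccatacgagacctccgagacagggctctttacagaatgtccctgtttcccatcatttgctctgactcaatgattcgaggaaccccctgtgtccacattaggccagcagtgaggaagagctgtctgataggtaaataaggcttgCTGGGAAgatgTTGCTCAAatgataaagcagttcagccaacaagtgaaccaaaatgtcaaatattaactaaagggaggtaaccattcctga
The match to CTGGGAA lies 13 to 7 bases before the start in Fgg and 91 to 85 bases before it in Fgb, and Fga has none in this window. Fga and Fgb each hold 1 match to TTNNGCAA. Of the 45 genes 35 had a promoter in the table. TTNNGCAA was found in 8 of these 35 (22.9%) and in 9.55% of the 27025 promoters of all genes, CTGGGAA in 5 (14.3%) and 9.08%, and TATAAA in 1 (2.86%) and 13%. A match is a run of letters and not a site shown to be bound.

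Fgb was 8.76, 8.78 and 8.68 in the Ctrl mice, 8.39, 8.77 and 8.53 on the RS diet, 8.84, 8.74 and 8.79 on DJ and 8.40, 8.42 and 8.62 on DJ526. All DJ526 mice lay below all Ctrl and all DJ mice, and RS spread over most of the range. The log2 difference was -0.31 between DJ526 and DJ (SE 0.0985, adjusted p = 0.378 from limma, and -0.23 once slides were blocked) and -0.26 between DJ526 and Ctrl (SE 0.0985, adjusted p = 0.386 from limma, and -0.13 once slides were blocked). Fgg was 8.45, 8.47 and 8.28 in the Ctrl mice, 8.28, 8.49 and 8.46 on the RS diet, 8.57, 8.61 and 8.64 on DJ and 8.38, 8.41 and 8.52 on DJ526. Here DJ lay above each of the other 3 groups without overlap, and Ctrl, RS and DJ526 overlapped one another. Its log2 difference was 0.21 between DJ and Ctrl (SE 0.0807, adjusted p = 0.916 from limma, 0.18 between the 1 DJ and the 3 Ctrl arrays of slide 1) and -0.17 between DJ526 and DJ (adjusted p = 0.515 from limma, and -0.27 once slides were blocked).

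For Fga, the brightest probe gave 4.45, 4.65 and 4.41 in the Ctrl mice, 4.25, 4.68 and 4.29 on the RS diet, 4.60, 4.69 and 4.78 on DJ and 4.40, 4.38 and 4.65 on DJ526, so that every pair of groups overlapped. RS replicate 1 had the lowest level of Fga and of Fgb, and RS replicate 2 lay above the other RS mice for both. A second probe of Fga went the other way in both comparisons with DJ, with a log2 difference of -0.52 between DJ and Ctrl where the brightest gave 0.19, and of 0.47 between DJ526 and DJ where the brightest gave -0.21. With slides blocked, the brightest probe gave 0.10 and -0.078. No relation of the mean of the 3 fibrinogen genes with the mean of 10 acute phase genes was detectable over the 12 mice (Pearson's r = 0.364, permutation p = 0.252, adjusted over 8 relations 0.288, and Spearman's rho = 0.329, permutation p = 0.296), and without DJ replicate 3 and RS replicate 1, the 2 mice farthest from the median of the acute phase genes, r was 0.640 (permutation p = 0.0476). F13b, the carrier subunit of the factor that crosslinks fibrin, had group means from 2.85 in DJ to 3.03 in RS, and the groups overlapped.

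**Figure D3:**
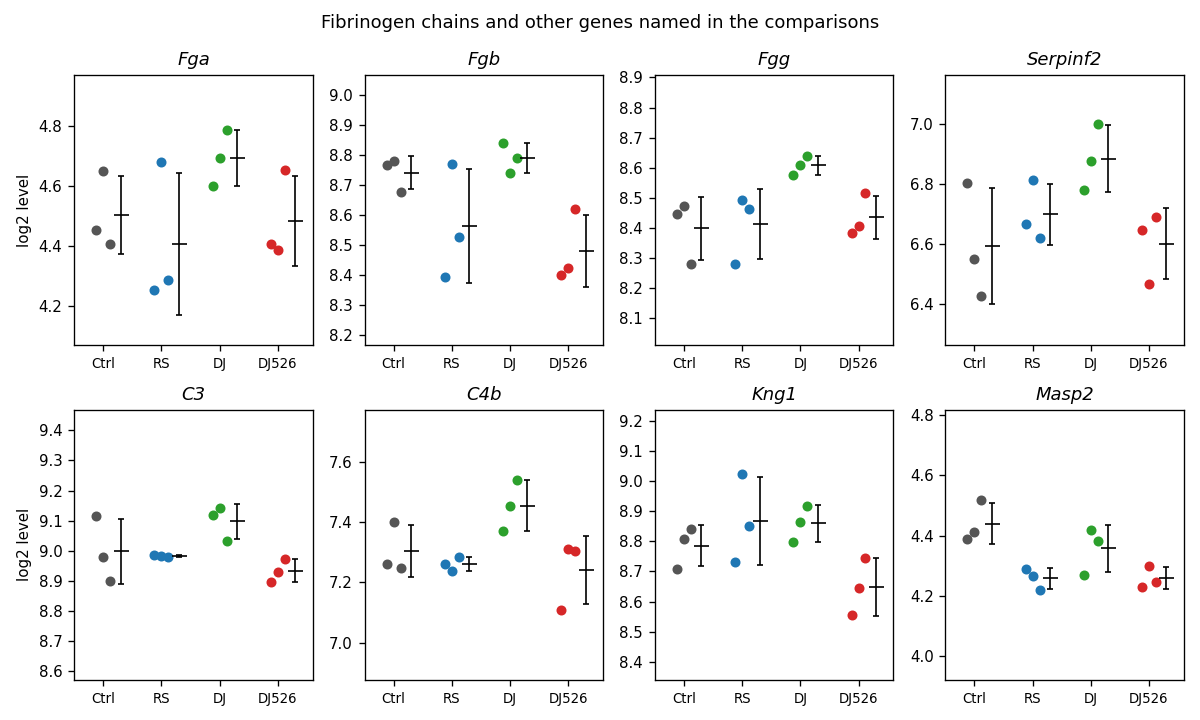
Log2 level of 8 genes in the 12 mice by diet (points), with the group mean and SD beside them (n = 3). Each panel spans 0.9 log2 units. The DJ526 points of Fgb, Fgg, Serpinf2, C3, C4b and Kng1 all lie below the DJ points, and the RS and DJ526 points of Masp2 lie below the Ctrl points.

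Of the genes of clot lysis, Serpinf2 and Plg were among those without overlap. Serpinf2 encodes alpha-2-antiplasmin, the main inhibitor of plasmin, and was 6.80, 6.55 and 6.43 in the Ctrl mice, 6.66, 6.81 and 6.62 on the RS diet, 6.78, 6.87 and 7.0 on DJ and 6.65, 6.47 and 6.69 on DJ526. The DJ526 mice lay below the DJ mice (log2 difference -0.28, SE 0.106, adjusted p = 0.453 from limma), but overlapped Ctrl and RS. Plg, which encodes plasminogen, the precursor of plasmin, was 6.96, 6.95 and 6.96 in the DJ mice and 6.91, 6.80 and 6.64 in Ctrl, a log2 difference of 0.18 (SE 0.0847, adjusted p = 0.956 from limma, 0.18 within slide 1). The DJ mice lay close together, and the RS and DJ526 mice ranged across both groups. Cpb2, a carboxypeptidase that protects fibrin from plasmin, had group means of 5.99 to 6.08 and overlapped throughout. The thrombin inhibitors Serpinc1 (antithrombin) and Serpind1 (heparin cofactor II) had their highest mean in DJ (8.66 and 6.45) and their lowest in DJ526 (8.55 and 6.30), again with overlap in every comparison.

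The 7 genes that depend on vitamin K, whose proteins need a carboxylated glutamate to bind calcium, held F2 and Proz among the genes without overlap. Prothrombin (F2) was 7.83, 7.80 and 7.82 in the Ctrl mice, 7.84, 7.96 and 8.02 on the RS diet, 7.92, 8.03 and 7.94 on DJ and 7.83, 7.82 and 7.92 on DJ526. The 3 Ctrl mice lay below all RS and all DJ mice, with log2 differences of 0.12 for RS (SE 0.0673, adjusted p = 0.883 from limma) and 0.14 for DJ (adjusted p = 0.951 from limma, 0.10 within slide 1), and that for RS was -0.060 with another background correction (normexp) and 0.017 once slides were blocked. Protein Z (Proz), a cofactor for the inhibition of factor Xa, was 1.95, 1.90 and 1.96 in the Ctrl mice, 1.87, 1.92 and 1.85 on the RS diet, 1.83, 1.97 and 1.94 on DJ and 1.76, 1.64 and 1.82 on DJ526. It was the 1 gene of the list whose DJ526 mice lay below the mice of all other diets, with log2 differences of -0.19, -0.17 and -0.14 from Ctrl, DJ and RS (SE 0.0672 each, adjusted p = 0.35, 0.469 and 0.944 from limma), and the difference from RS within slide 3, where 3 DJ526 arrays met 1 RS array, was -0.11.

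F7, which starts coagulation with tissue factor, had its highest mean in Ctrl (2.92 ± 0.148 (SD, n = 3)) and its lowest in DJ526 (2.70 ± 0.111 (SD, n = 3)), and the groups overlapped. F9, the factor missing in haemophilia B, F10, which makes thrombin, and the anticoagulants Proc (protein C) and Pros1 (protein S) overlapped in every comparison. Over these 4 genes the group means lay between 2.52 and 2.64 for F9, 7.08 and 7.14 for F10, 6.70 and 6.79 for Proc, and 1.08 and 1.33 for Pros1. The probe for a second transcript of F10 had log2 differences of -0.25, -0.41 and -0.28 from Ctrl in RS, DJ and DJ526, where the brightest probe gave differences under 0.05 in size.

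Among the cofactors, F5 stayed between 4.37 and 4.52 in all 12 mice. F8, the factor missing in haemophilia A, was -0.97, -1.03 and -0.80 in the Ctrl mice, -0.97, -1.15 and -1.06 on the RS diet, -1.74, -0.89 and -1.01 on DJ and -0.83, -0.90 and -0.90 on DJ526. One mouse, DJ replicate 1, lay far below the rest, and the DJ526 mice lay just above the RS mice (log2 difference 0.18, SE 0.182, adjusted p = 0.986 from limma, 0.18 within slide 3). Across the 12 mice F8 followed the mean of 6 markers of sinusoidal endothelium (Pearson's r = 0.725, permutation p = 0.00674, adjusted over 8 relations 0.0135, and Spearman's rho = 0.650, permutation p = 0.0257, adjusted 0.0411). Without DJ replicate 1 and RS replicate 3, the 2 mice with the lowest markers, r was 0.359 (permutation p = 0.309), so that the relation rests on those mice. The probe for another transcript of F8 gave log2 differences of 0.09, 0.07 and 0.14 from Ctrl in RS, DJ and DJ526, where the brightest probe gave -0.13, -0.28 and 0.056. With slides blocked the brightest probe gave -0.91, -0.80 and -0.73 (adjusted p = 0.174, 0.127 and 0.262 from limma). On slide 1, DJ replicate 1 is the 1 array that was set against Ctrl.

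In the contact group, F11 and Kng1 differed most. F11, the factor XI gene, was 1.96, 2.13 and 2.16 in the Ctrl mice, 2.21, 2.51 and 2.36 on the RS diet, 2.01, 2.51 and 3.23 on DJ and 2.13, 1.86 and 2.17 on DJ526, and DJ replicate 3 alone stood far above all others. RS lay above Ctrl and above DJ526 without overlap. The log2 difference was 0.28 between RS and Ctrl (SE 0.236, adjusted p = 0.952 from limma) and -0.31 between DJ526 and RS (adjusted p = 0.986 from limma, -0.31 within slide 3). The difference between RS and Ctrl turned to -0.58 with the slide as a block. That value links RS to Ctrl through the DJ mice, DJ replicate 3 among them. Kng1, the gene for the kininogens from which bradykinin is cut, was 8.71, 8.81 and 8.84 in the Ctrl mice, 8.73, 9.02 and 8.85 on the RS diet, 8.80, 8.87 and 8.92 on DJ and 8.55, 8.65 and 8.75 on DJ526. The DJ526 mice lay below the DJ mice (log2 difference -0.21, SE 0.0874, adjusted p = 0.478 from limma). A probe for another transcript of Kng1 gave 0.09 in the same comparison, and Kng2 is a close copy that a probe may also detect. F12 (factor XII) and Klkb1 (plasma prekallikrein), which start this pathway, had group means from 5.93 to 6.05 and from 4.38 to 4.48, and overlapped in every comparison.

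Among the complement genes that hepatocytes make, C3, Cfb and C4b were lower in DJ526 than in DJ without overlap. C3, at which all pathways meet, was 9.11, 8.98 and 8.90 in the Ctrl mice, 8.98, 8.98 and 8.98 on the RS diet, 9.12, 9.14 and 9.03 on DJ and 8.90, 8.93 and 8.97 on DJ526. The DJ526 mice lay below the RS and the DJ mice without overlap, with log2 differences of -0.16 from DJ (SE 0.0705, adjusted p = 0.487 from limma) and -0.049 from RS (adjusted p = 0.986 from limma), but quantile normalization of the arrays turned these to 0.011 and 0.041. A second probe of C3 gave -0.19 from DJ, without overlap, and -0.055 from RS, with overlap. Cfb (factor B, the protease that C3 pairs with in the alternative pathway) was 6.97, 6.91 and 6.95 in DJ and 6.90, 6.76 and 6.87 in DJ526, without overlap and with a log2 difference of -0.10 (adjusted p = 0.628 from limma) that turned to 0.038 with the slide as a block. C4b, which carries the classical and lectin pathways on to C3, was 7.26, 7.40 and 7.25 in the Ctrl mice, 7.26, 7.24 and 7.28 on the RS diet, 7.37, 7.45 and 7.54 on DJ and 7.11, 7.31 and 7.30 on DJ526. All DJ526 mice lay below all DJ mice (log2 difference -0.21, SE 0.0772, adjusted p = 0.437 from limma), and both overlapped Ctrl. C4a is a close copy of C4b, so that the probe may read both.

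The C1 proteases C1ra and C1s, the protease C2 and the inhibitors C4bp and Serping1 (C1 inhibitor) showed small differences. Group means ran from 4.79 to 4.88 for C1ra, 4.88 to 4.99 for C1s, 4.73 to 4.85 for C2 and 6.16 to 6.29 for Serping1, with overlap throughout. C1ra and C1s also have close copies, C1rb and C1s2. C4bp, which clears C4b, was 5.78, 5.96 and 6.01 in Ctrl and 5.76, 5.75 and 5.74 in RS, a log2 difference of -0.17 (SE 0.0851, adjusted p = 0.866 from limma, and -0.089 once slides were blocked). Cfi, the protease that cuts C3b and C4b, had group means of 6.86 to 6.95.

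The 3 chains of C1q, the antibody sensor of the classical pathway, varied together from mouse to mouse and overlapped in all comparisons. C1qa was 2.26, 2.06 and 2.82 in the Ctrl mice, 2.51, 1.97 and 1.68 on the RS diet, 1.75, 2.06 and 2.52 on DJ and 2.33, 1.72 and 2.12 on DJ526. C1qb had its highest level in Ctrl replicate 3 (2.44) and its lowest in DJ526 replicate 2 and RS replicate 3 (1.30 in both), and C1qc likewise ranged from 2.48 in DJ526 replicate 2 to 3.32 in Ctrl replicate 3. All 3 had their highest mean in Ctrl, and the log2 differences of the other diets from it, -0.33 to -0.20, were smaller in size than the SD within groups of the gene in question. With slides blocked those of RS and DJ were larger in size than that SD for all 3 genes. They were -0.68 and -0.63 for C1qa, -0.67 and -0.60 for C1qb, and -0.27 and -0.30 for C1qc. The adjusted p from limma was 0.687 and 0.627, 0.745 and 0.719, and 0.890 and 0.836 in that order. The mean of the 3 followed the mean of 7 Kupffer cell and macrophage markers (Adgre1, Clec4f, Cd5l, Vsig4, Marco, Csf1r and Timd4) over the 12 mice, with Pearson's r = 0.886 (permutation p = 0.0002, adjusted over 8 relations 0.0016) and Spearman's rho = 0.853 (permutation p = 0.00078, adjusted 0.00312). Without Ctrl replicate 3 and DJ replicate 1, the 2 mice farthest from the median of the markers, r was 0.786 (permutation p = 0.00894). After the mean of each diet was taken away r was 0.929, and after the mean of each slide 0.957. The 7 markers were all highest in Ctrl replicate 3, and their mean ranged from 2.98 to 3.80 in Ctrl, 2.81 to 3.16 in RS, 2.68 to 3.18 in DJ and 2.71 to 3.29 in DJ526. The part of the number of such cells in the C1q values was not tested.

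**Figure D4:**
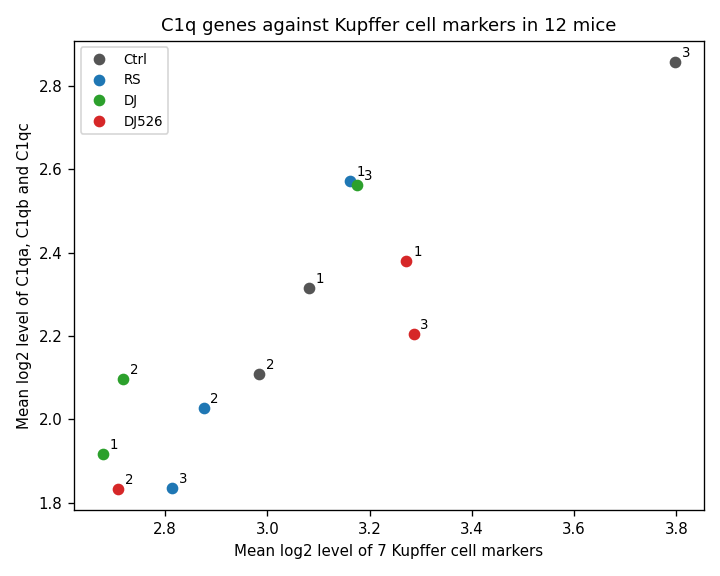
Mean log2 level of C1qa, C1qb and C1qc (vertical) against the mean log2 level of 7 Kupffer cell and macrophage markers (horizontal) in the 12 mice, coloured by diet and numbered by replicate. Ctrl replicate 3 is highest on both axes, and the diets are mixed along the line.

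Properdin, which holds the C3 convertase of the alternative pathway together, was highest in the same mouse. Cfp was 3.37, 3.49 and 4.21 in the Ctrl mice, 3.60, 3.39 and 3.45 on the RS diet, 3.25, 3.14 and 3.27 on DJ and 3.68, 3.24 and 3.80 on DJ526. The 3 DJ mice lay below the 3 Ctrl mice (log2 difference -0.47, SE 0.2, adjusted p = 0.945 from limma, -0.43 within slide 1), and the SD of Ctrl was 0.457. Without Ctrl replicate 3 the difference was -0.21. The 3 neutrophil markers S100a8, S100a9 and Ngp, of which Ngp was above background on 5 arrays, were also all highest in Ctrl replicate 3. Their mean was 0.03 there and between -3.43 and -1.16 in the other 11 mice, and the part of such cells in the values of Cfp was not tested.

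Cfd differed most between mice. It was -0.085, -4.10 and -5.81 in the Ctrl mice, -1.15, -8.49 and -6.95 on the RS diet, -4.66, -1.04 and -5.17 on DJ and -6.47, -6.36 and -7.82 on DJ526. One mouse each of Ctrl, RS and DJ lay between -1.15 and -0.085, and the other 9 mice lay between -8.49 and -4.10. The same 3 mice, Ctrl replicate 1, RS replicate 1 and DJ replicate 2, had Adipoq, the gene for the adipocyte hormone adiponectin, between -3.41 and -2.80, and the other 9 had it between -6.82 and -5.56. Cfd was well above background in 6 of these 9 mice and Adipoq in 4, so that the lowest values have no order. Of 5 adipocyte markers, 3 (Adipoq, Plin1 and Retn) were higher in each of these 3 mice than in all others, and Cidec and Lep were not. The mean of the 5 ranged from -5.13 to -3.03 in Ctrl, -4.91 to -3.52 in RS, -5.09 to -3.79 in DJ and -5.11 to -4.92 in DJ526. The mice form 2 clusters, so that no correlation over all 12 is given, and within the other 9 too few values were above background for one.

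The DJ526 mice lay below all Ctrl and all DJ mice for Cfd, with log2 differences of -3.55 (SE 1.89, adjusted p = 0.526 from limma) and -3.26 (adjusted p = 0.589 from limma, and -1.65 once slides were blocked). DJ526 replicate 3 was not well above background. Without the 3 mice that stood apart, the remaining values of Ctrl (-4.10 and -5.81) and DJ (-4.66 and -5.17) were all well above background, those of DJ526 replicates 1 and 2 (-6.47 and -6.36) were so too, and neither remaining RS value was. Dim probes within 15 columns and 60 rows of the Cfd spot (1523 probes) had a median log2 difference of -0.07 between DJ526 and Ctrl and of -0.01 between DJ526 and DJ, where dim probes elsewhere had 0.10 and 0.17. The part of adipocytes and of position in the DJ526 values was not tested.

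**Figure D5:**
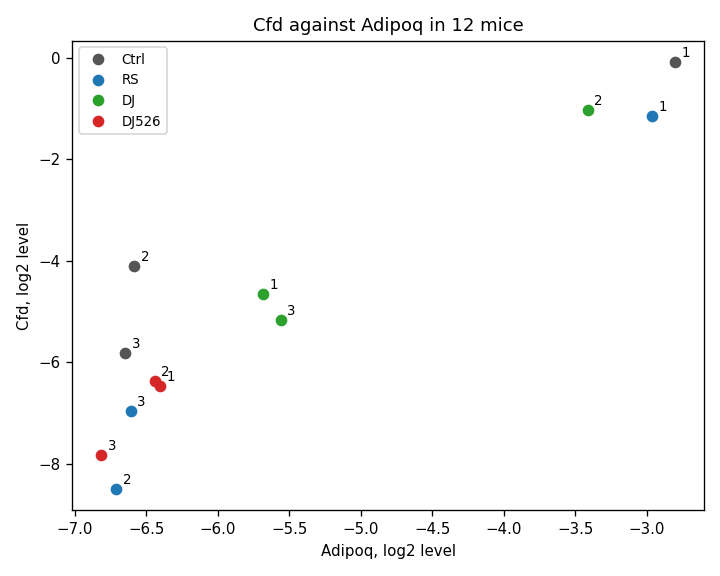
Log2 level of Cfd (vertical) against that of Adipoq (horizontal) in the 12 mice, coloured by diet and numbered by replicate. Ctrl replicate 1, RS replicate 1 and DJ replicate 2 stand apart at the upper right, and no DJ526 mouse is among them. 3 values of Cfd and 5 of Adipoq were not well above background.

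In the lectin pathway, Masp2 was lower in both diets with resveratrol than in Ctrl without overlap. It encodes the protease that the mannose-binding lectins activate and was 4.39, 4.41 and 4.52 in the Ctrl mice, 4.29, 4.26 and 4.22 on the RS diet, 4.27, 4.42 and 4.38 on DJ and 4.23, 4.30 and 4.25 on DJ526. The log2 difference from Ctrl was -0.18 in RS (SE 0.0621, adjusted p = 0.683 from limma, and -0.29 once slides were blocked) and -0.18 in DJ526 (adjusted p = 0.336 from limma, and -0.26 once slides were blocked), and both use the same Ctrl mice. Between DJ and Ctrl it was -0.083, with overlap, and -0.17 within slide 1. Between DJ526 and DJ it was -0.10, with overlap. A second probe of the same transcript gave -0.19 and -0.23 for RS and DJ526 against Ctrl, and a probe for the other transcript gave 0.05 and -0.28. Mbl1 and Mbl2, the mannose-binding lectins themselves, overlapped in all comparisons. Mbl1 ranged from 1.77 in RS replicate 3 to 2.83 in DJ replicate 3, with a log2 difference of -0.44 between DJ526 and DJ (SE 0.207, and -0.14 once slides were blocked), and Mbl2 from 7.55 to 7.92. Masp1, a partner protease of Masp2, had group means of -0.88 in RS to -0.73 in DJ.

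The terminal genes build the membrane pore, and C8a and C8b, 2 subunits of C8, varied between mice more than between diets. C8a was 2.55, 1.76 and 2.54 in the Ctrl mice, 1.87, 1.70 and 1.64 on the RS diet, 2.16, 1.28 and 3.21 on DJ and 2.0, 1.57 and 1.87 on DJ526. C8b was 2.77, 2.43 and 2.84 in the Ctrl mice, 2.23, 2.48 and 2.66 on the RS diet, 2.42, 2.05 and 3.23 on DJ and 2.67, 2.38 and 2.44 on DJ526. DJ replicate 3 was highest and DJ replicate 2 lowest for both genes, and Ctrl replicates 1 and 3 came next to the top in both. The SD of the DJ group, 0.967 for C8a and 0.604 for C8b, was above that of each other diet. A second probe of C8a gave log2 differences of -0.72, -0.16 and -0.68 from Ctrl in RS, DJ and DJ526, where the brightest gave -0.55, -0.066 and -0.47. The second probe lay lower without overlap in RS and DJ526 than in Ctrl, and the brightest overlapped in each comparison. DJ replicate 3 also had the highest F11 and Mbl1, and its mean over 10 acute phase genes, 5.28, was the highest of the 12 mice.

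C8g, the third subunit of C8, which lies on another chromosome, had group means of 7.21 to 7.33. Its highest and lowest DJ mice were replicates 2 and 3, the reverse of C8a and C8b. C9, the subunit that forms the wall of the pore, was 0.92, 1.17 and 1.23 in the Ctrl mice, 0.73, 1.17 and 1.08 on the RS diet, 1.44, 0.92 and 1.02 on DJ and 0.94, 1.18 and 1.52 on DJ526, with overlap throughout. C6 had group means of -0.83 in RS, -0.82 in DJ, -0.60 in DJ526 and -0.44 in Ctrl, also with overlap.

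Whether the diets with resveratrol differed alike from those without, on rice and on starch, was read as a difference between 2 differences. It was DJ526 minus DJ against RS minus Ctrl. DJ526 differs from DJ in a transgene as well, and neither pair shares a slide, so resveratrol cannot be told apart from these here. Of the 45 genes 24 had a value below 0 and 21 above. Cfd apart, the largest was -0.80 for F11 (SE 0.333, and -0.24 once slides were blocked). The smallest adjusted p was 0.742 from limma, for Serpinf2 (log2 value -0.39, SE 0.15, and -0.20 once slides were blocked), whose mean was 6.59 in the Ctrl mice, 6.70 on the RS diet, 6.88 on DJ and 6.60 on DJ526.

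Other genes of these pathways were read from lists of 18 complement components, regulators and receptors, 24 genes of coagulation and fibrinolysis, 6 genes that process clotting factors (such as Ggcx, the vitamin K dependent carboxylase) and 12 regulators of their transcription. limma with Benjamini-Hochberg adjustment called none of these 60 genes in any comparison. At an unadjusted p under 0.05 there were 3 between RS and Ctrl, 5 between DJ and Ctrl, 4 between DJ526 and Ctrl, 5 between DJ526 and DJ and 0 between DJ526 and RS. Over the 60 genes, the 5 between DJ and Ctrl were above the share of all probes in that comparison (5.25%). The other counts over the 60 genes were below that of their own comparison. The coagulation list of 24 held all 4 between DJ526 and Ctrl (3 lower, 1 higher), above the share of all probes (10.8%). Between DJ526 and DJ, 7 genes of this list lay lower and 2 higher without overlap, where all probes gave 6.28% and 12.2%. The 5 between DJ526 and DJ were all lower in DJ526 and all from this list of 24, above the share of all probes (9.84%). Among them, chosen after their values were seen, was Fgl1, a hepatocyte protein related to fibrinogen, which was 6.59, 6.57 and 6.41 in the Ctrl mice, 6.09, 6.29 and 6.03 on the RS diet, 6.64, 6.33 and 6.68 on DJ and 6.15, 6.25 and 6.24 on DJ526. The RS and DJ526 mice lay below the Ctrl and DJ mice without overlap. Another was Serpina10, which encodes the inhibitor that protein Z serves, with a log2 difference of -0.26. Hc, the gene for C5, was 7.04, 7.06 and 7.03 in the Ctrl mice, 6.85, 6.80 and 6.79 on the RS diet, 6.97, 6.77 and 6.94 on DJ and 6.81, 6.84 and 7.03 on DJ526, and the Ctrl mice lay above all others, over DJ526 replicate 3 by less than the rounding shows (adjusted p = 0.673 from limma for RS). The 12 regulators of transcription had log2 differences from Ctrl of -0.37 to 0.13 in RS, -0.65 to 0.37 in DJ and -0.44 to 0.25 in DJ526, with medians of -0.07, -0.02 and -0.06.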

How the data were processed

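Liver RNA of 12 mice was labelled with Cy3 and hybridised to Agilent mouse arrays by the authors, 1 array per mouse. The deposited files hold the intensity of each spot as Agilent Feature Extraction 11.5.1.1 gave it, background-subtracted but not normalized between arrays. A deposited table holds the same signals as linear intensity after global normalization by the authors, and its log2 values served as an alternative. Spots of a probe were averaged without spots flagged as outliers (93 to 197 per array), control spots were left out, and each array was scaled to its own 75th percentile on the log2 scale. This left 39429 probes, of which 27508 (69.8%) could be named through the RefSeq accession in the files, and 68 probes lacked a value on at least 1 array.

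Differences were tested with limma 3.58.1 in R 4.3.3 (1 mean per diet over all 12 arrays, eBayes with an intensity trend, 8 residual and 2.98 prior degrees of freedom) and adjusted by the Benjamini-Hochberg method over all probes. The comparisons share control samples. p-values measure the spread between single mice, and cage effects cannot be told apart from diet. The number of arrays limits the precision. Correlations used 100000 permutations in numpy 2.4.6, with ranks and the adjustment from scipy 1.17.1. The fit was tested on simulated data.

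The members and gene lists were chosen with earlier results of these data known. Genes were named by a rule: every called gene, up to 10 genes per comparison by size of difference among those without overlap and above background in at least 1 group, and 21 genes named always, with all others by role. Replicate numbers were not used as pairs, since deviations of samples with the same number correlated between -0.354 and 0.407. Alternatives were normexp background correction, quantile and median scaling, the deposited table, filters, slide and replicate blocks, other tests and leaving out each mouse. One item is not reported here.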

Additional observations from a re-analysis of the deposited data

How the results depend on the processing

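No gene of the list passed the adjusted threshold under any of the alternatives run, including the methods' t-test after adjustment. Limma with a replicate block gave 0 calls in each comparison. Each diet holds each replicate number once, so this block cannot change a log2 difference (median -0.08 between DJ526 and DJ, as without it). Alternatives were followed for the 25 differences of single genes without overlap, and 594 of their 599 values kept the direction. Many of these values could not turn. Leaving out a mouse cannot turn a difference without overlap. The filter on dim probes, a fit without the intensity trend, the replicate block, fits of 2 groups and the t-test leave the difference unchanged. The 594 values are therefore no measure of how firm the directions are. The 5 that turned were F11 between RS and Ctrl (-0.58 with a slide block), F2 between RS and Ctrl (-0.060 with normexp), Cfb between DJ526 and DJ (0.038 with a slide block), and C3 between DJ526 and DJ (0.011) and between DJ526 and RS (0.041), both with quantile normalization. The cause was not tested. The number of genes without overlap was 0 with median scaling between RS and Ctrl and between DJ526 and RS (4 in each by the 75th percentile), and with normexp it was 2 between DJ and Ctrl and 9 between DJ526 and Ctrl (4 in each). The share of all probes without overlap under these alternatives is not given, and these numbers are not read as a result about the list. Leaving out a mouse can only keep or raise the number of genes without overlap, as for any probe, since fewer mice must lie apart. It then ranged from 4 to 12 between RS and Ctrl (highest without RS replicate 1), 4 to 12 between DJ and Ctrl (Ctrl replicate 1), 4 to 11 between DJ526 and Ctrl (DJ526 replicate 3), 9 to 18 between DJ526 and DJ (DJ replicate 1 or DJ526 replicate 3) and 6 to 11 between DJ526 and RS (DJ526 replicate 3). The median difference of the list with median scaling was -0.11 between RS and Ctrl, -0.11 between DJ526 and Ctrl and -0.17 between DJ526 and DJ, and with the deposited table -0.022 between DJ526 and DJ. Leaving out each mouse gave medians of -0.08 to -0.02 (RS and Ctrl), -0.01 to 0.03 (DJ and Ctrl), -0.09 to 0.00 (DJ526 and Ctrl), -0.11 to -0.05 (DJ526 and DJ) and -0.05 to 0.02 (DJ526 and RS). Under normexp 12 genes lacked a value on at least 1 array. SAM was not run.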
